A study of Rattus norvegicus with 12 samples.

Results

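Fibronectin, the small leucine-rich proteoglycans, versican, the matricellular proteins and smooth muscle actin were followed as 1 family of 10 genes (Fn1, Bgn, Dcn, Lum, Vcan, Postn, Sparc, Tnc, Thbs1 and Acta2) in the renal cortex of cisplatin-treated rats. Every array probe outside the controls whose RefSeq accession maps to one of these rat symbols was taken, which gave 16 probes of 61537, and 10 of the 15645 named genes on the array. Total RNA was measured on 12 one-colour Agilent arrays from male Sprague-Dawley (Crl:CD(SD)) rats that were 5 weeks old when bought and carried no genetic alteration. Rats received cisplatin, a platinum drug that binds DNA and harms kidney tubules, by gavage at 3.75 mg/kg/day (3 rats) or intravenously at 0.75 mg/kg/day (3 rats), each for 4 weeks, against 3 rats given water by gavage and 3 given water intravenously. The intravenous dose is that of the sample labels, while a protocol text shared by all samples gives 3.75 mg/kg/day. Route, dose and experiment changed together. The labels call the 3 animals of a group biological replicates.

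Fibronectin is a large glycoprotein that cells assemble into fibrils through integrins, and collagens and growth factors attach to that scaffold. Small leucine-rich proteoglycans such as decorin, biglycan and lumican bind collagen and shape its fibrils, whereas versican binds hyaluronan and swells the matrix with its chondroitin sulphate chains. Matricellular proteins (tenascin-C, thrombospondin-1, periostin, SPARC) are secreted into the matrix but mainly modulate how cells respond to it, and smooth muscle actin, the product of Acta2, is the contractile filament that marks vascular smooth muscle and, in scarring kidneys, myofibroblasts.

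Values below are normalised signals, in which the 75th percentile of each array was set to 1000, and are comparable between arrays for 1 probe but not between probes. A change is the mean log2 difference between cisplatin and water ± its standard error from limma, fitted to all 12 arrays, with Benjamini-Hochberg adjustment over 32215 features, and passed at an adjusted p under 0.05. Where a gene has several probes, the brightest stood for it in the gene-level fit. Between 66.1% and 73.9% of the probes on an array exceeded its background clearly, and the number of arrays limits the precision.

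Of the 10 genes, 9 were measurable enough to be tested, and 9 of 9 rose with gavage cisplatin, while 29.5% of all features tested passed as higher in that comparison. With intravenous cisplatin 7 of 9 rose, against 26.1% of all features, and Vcan and Acta2 did not pass. Intravenous cisplatin replicate 3 was low for most of these genes, and without it 9 passed with intravenous cisplatin; without other single arrays 5 to 7 did. The median change of the 9 genes was 1.80 with gavage cisplatin and 1.19 with intravenous cisplatin, whereas the median over all features tested was 0.0015 and -0.075 (log2). All 3 cisplatin arrays lay above all 3 water arrays for each of the 9 in the gavage experiment, as they did for 33.2% of features, and for 7 of 9 in the intravenous experiment, as they did for 29.3% of features. Of the 9, 8 were well above background on all water arrays too, and Lum passed the detection filter through the gavage cisplatin group alone. The genes were chosen with earlier results of these data known, so the counts describe them and do not rank the family against other genes.

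**Figure D1:**
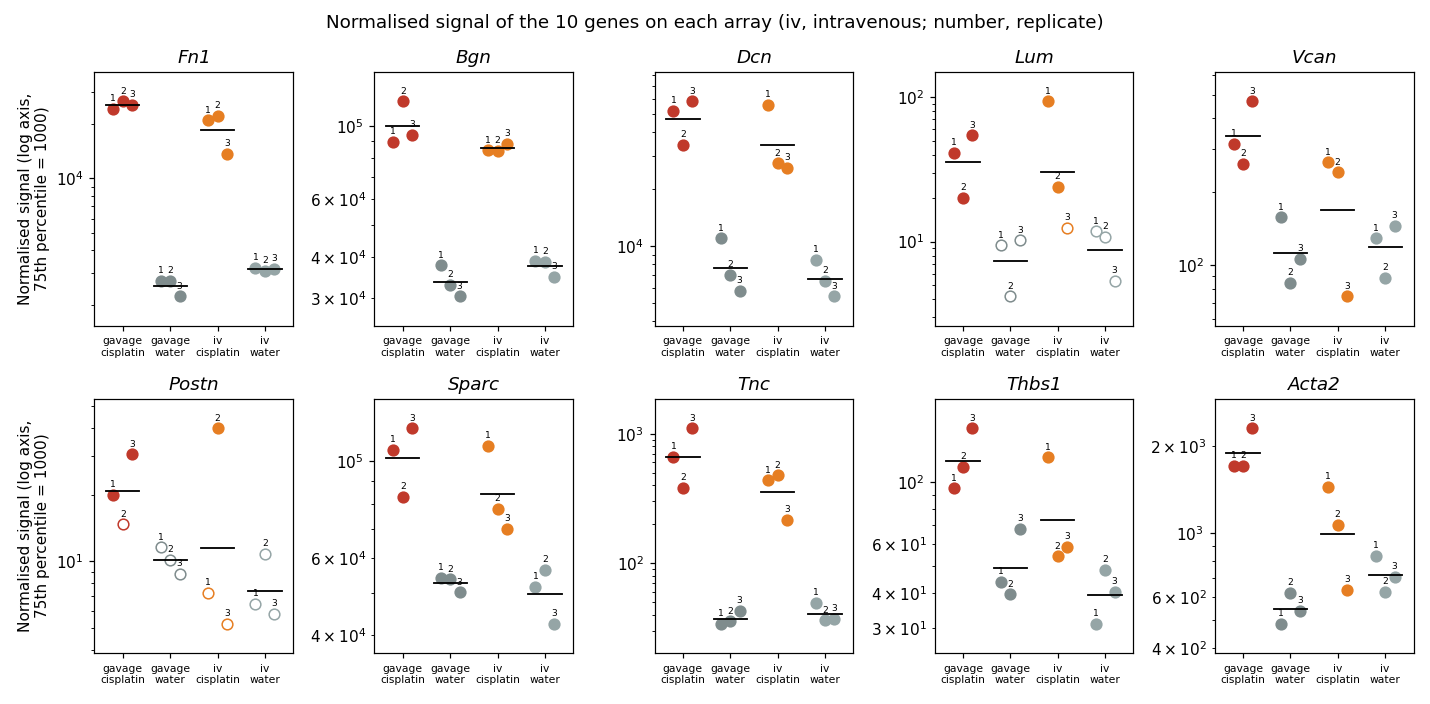
Normalised signal of each of the 10 genes on each array (vertical log axis, 75th percentile of the array set to 1000), with groups along the horizontal axis. Points are single arrays numbered by replicate, open where the probe was not well above background, and bars are geometric means of 3 arrays. Intravenous cisplatin replicate 3 sits within or near the water arrays for Vcan, Acta2, Lum and Postn.

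Fn1 encodes fibronectin. Its normalised signal was 24311, 26716 and 25603 on the gavage cisplatin arrays, against 2729, 2711 and 2227 on the gavage water arrays. On the intravenous cisplatin arrays it was 20904, 22257 and 13728, against 3200, 3077 and 3167 on the intravenous water arrays. In both experiments every cisplatin array was far above every water array, and intravenous cisplatin replicate 3 was the lowest of the 6 treated ones. Fn1 rose by 3.33 ± 0.16 with gavage cisplatin (10.03-fold, limma adjusted p = 4.34e-07) and by 2.56 ± 0.16 with intravenous cisplatin (5.89-fold, adjusted p = 3.05e-06). Its 3 probes agreed in direction and differed in size. The next probe rose by 3.36 ± 0.15 (gavage) and 2.77 ± 0.15 (intravenous), and the dimmest by 2.49 ± 0.19 in both. At that dimmest probe the difference between the experiments was 0.0015 (limma adjusted p = 0.998), against -0.77 ± 0.23 at the brightest (adjusted p = 0.124), so neither showed a passed difference.

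Bgn encodes biglycan, a proteoglycan of the pericellular matrix that can also engage Toll-like receptors. It had a normalised signal of 89637, 119031 and 94042 on the gavage cisplatin arrays, against 37768, 32944 and 30337 with gavage water. Intravenous cisplatin arrays had 84464, 84117 and 88455, against 38914, 38728 and 34801 with intravenous water. The groups did not overlap in either experiment, and intravenous cisplatin replicate 3, low for most of the other genes, was the highest of its group here. The change was 1.58 ± 0.12 with gavage cisplatin (2.98-fold, limma adjusted p = 4.33e-06) and 1.19 ± 0.12 with intravenous cisplatin (2.29-fold, adjusted p = 3.56e-05). The other Bgn probe gave 2622, 2970 and 2660 on gavage cisplatin arrays, against 1358, 2755 and 1075 with gavage water, and changed by 0.79 ± 0.36 (adjusted p = 0.0861) in the gavage and 0.55 ± 0.36 (adjusted p = 0.218) in the intravenous experiment. It passed in neither, and its water arrays spread widely.

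Dcn encodes decorin, which coats collagen fibrils and binds transforming growth factor beta. Its signal was 51702, 34290 and 58136 with gavage cisplatin, against 10967, 7052 and 5812 with gavage water. With intravenous cisplatin it was 55428, 27286 and 25845, against 8458, 6553 and 5412 with intravenous water. No cisplatin array came near a water array, though intravenous cisplatin replicate 1 stood well above the other treated arrays of its group. Dcn rose by 2.61 ± 0.34 (6.12-fold, limma adjusted p = 1.12e-04) with gavage and by 2.34 ± 0.34 (5.07-fold, adjusted p = 2.89e-04) with intravenous cisplatin.

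Lum encodes lumican, a collagen-binding proteoglycan whose gene is the next protein-coding gene after Dcn on rat chromosome 7 in the GRCr8 annotation. It was dim, with a signal of 40.9, 20.1 and 54.3 on gavage cisplatin arrays, against 9.39, 4.16 and 10.2 with gavage water, where no array was well above background. With intravenous cisplatin it was 93.7, 24.0 and 12.5, the last not well above background, against 11.8, 10.8 and 5.34 with intravenous water, again below the detection mark on all 3. The fitted change was 2.27 ± 0.70 with gavage cisplatin (limma adjusted p = 0.0169), which bounds the fold at 1.86 or more, and 1.79 ± 0.70 with intravenous cisplatin (adjusted p = 0.0476), at least 1.43-fold. The bound sets the mean of the cisplatin arrays against the lowest signal that counted as detected on each water array. It ignores the spread between arrays, and the intravenous mean includes replicate 3, which was not well above background. The 95% intervals of the change began at 0.72 with gavage and 0.24 with intravenous cisplatin (log2). The intravenous call did not last: it was lost in 9 of 12 fits that left out 1 array, and without intravenous cisplatin replicate 1 the change was 0.98 (adjusted p = 0.166). In the gavage experiment it was lost without gavage cisplatin replicate 3 (1.96, adjusted p = 0.0613) or gavage water replicate 2 (1.86, adjusted p = 0.0648), and under normexp background correction the change was 0.21 (adjusted p = 0.532).

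Vcan encodes versican, the hyaluronan-binding chondroitin sulphate proteoglycan. On gavage cisplatin arrays its signal was 315, 260 and 471, against 157, 84.6 and 106 with gavage water. Intravenous cisplatin arrays gave 264, 240 and 74.4, against 129, 89.0 and 145 with intravenous water. The gavage groups were separate, but intravenous cisplatin replicate 3 was below all 3 of its water arrays. The change was 1.59 ± 0.46 with gavage cisplatin (3.01-fold, limma adjusted p = 0.0126) and 0.50 ± 0.46 with intravenous cisplatin (adjusted p = 0.369, 95% interval -0.52 to 1.52). Without intravenous cisplatin replicate 3 the intravenous change was 1.09 and passed (adjusted p = 0.0177), whereas without replicate 1 of that group it was 0.17 (adjusted p = 0.781). The 3 Vcan probes disagreed in the intravenous experiment, where a second probe rose by 1.23 ± 0.41 (adjusted p = 0.0270) and the third changed by 0.12 ± 0.35 (adjusted p = 0.796). With gavage cisplatin all 3 probes rose, by 1.17 to 1.66.

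Postn encodes periostin, a matricellular protein of remodelling connective tissue, and was not tested because no group was well above background throughout. Its signal was 19.9, 14.7 and 30.4 on gavage cisplatin arrays, the first and the third well above background, against 11.6, 10.2 and 8.77 with gavage water, none of them so. In the intravenous experiment only cisplatin replicate 2 was well above background, with 39.8 beside 7.21 and 5.24 for the other cisplatin arrays, against 6.43, 10.8 and 5.79 with intravenous water. The bound is at least 1.08-fold with gavage cisplatin, and the intravenous values allow no fold.

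Sparc encodes SPARC, or osteonectin, which binds collagen and calcium. Signals were 106180, 82921 and 118964 with gavage cisplatin, against 54070, 53704 and 50147 with gavage water. They were 108623, 77896 and 70144 with intravenous cisplatin, against 51561, 56413 and 42477 with intravenous water. Groups were separate in both experiments, with the smallest change of the passed genes in the reported fit: 0.95 ± 0.18 with gavage (1.93-fold, limma adjusted p = 0.00131) and 0.75 ± 0.18 with intravenous cisplatin (1.69-fold, adjusted p = 0.00549).

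Tnc encodes tenascin-C, a matricellular protein scarce in most adult tissues and made at sites of injury. Its normalised signal was 667, 384 and 1101 on gavage cisplatin arrays, against 34.0, 35.5 and 42.7 on gavage water arrays. Intravenous cisplatin arrays had 436, 476 and 215, against 49.5, 36.2 and 37.1 with intravenous water. The treated arrays varied among themselves and each lay far above the water arrays of its experiment. At its brightest probe the change was 4.14 ± 0.38 with gavage (17.6-fold, limma adjusted p = 1.19e-05) and 3.13 ± 0.38 with intravenous cisplatin (8.77-fold, adjusted p = 9.61e-05). The other Tnc probe rose by 2.87 ± 0.39 and 2.69 ± 0.39. Tnc exceeded Fn1 in this fit, but under normexp its changes were 2.80 and 2.08, below those of Fn1 (3.32 and 2.54). The other Tnc probe was below the brightest Fn1 probe with gavage cisplatin (3.33) and above it with intravenous cisplatin (2.56). The order of these genes thus depends on the processing and on the probe.

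Thbs1 encodes thrombospondin-1, which can activate latent transforming growth factor beta. It had a signal of 94.8, 113 and 156 with gavage cisplatin, against 44.0, 39.6 and 67.9 with gavage water. Intravenous cisplatin arrays had 123, 54.2 and 58.4, against 31.0, 48.4 and 40.5 with intravenous water. The groups were separate in both experiments but by a narrow gap in the intravenous one, where replicate 1 was about as high as the gavage cisplatin arrays. Thbs1 rose by 1.27 ± 0.34 with gavage (2.42-fold, limma adjusted p = 0.00796) and by 0.89 ± 0.34 with intravenous cisplatin (1.86-fold, adjusted p = 0.0423). The intravenous call was lost in 5 of 12 fits that left out 1 array, and was 0.52 (adjusted p = 0.149) without intravenous cisplatin replicate 1 and 0.21 (adjusted p = 0.350) under normexp background correction.

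Acta2 encodes smooth muscle actin. Its signal was 1716, 1710 and 2309 on gavage cisplatin arrays, against 485, 620 and 537 on gavage water arrays. With intravenous cisplatin it was 1446, 1071 and 636, against 833, 626 and 706 with intravenous water. The gavage groups were far apart, whereas intravenous cisplatin replicate 3 lay among its water arrays. Acta2 rose by 1.80 ± 0.26 with gavage cisplatin (3.47-fold, limma adjusted p = 2.27e-04), and its intravenous change of 0.47 ± 0.26 did not pass (adjusted p = 0.146, 95% interval -0.11 to 1.06). Without intravenous cisplatin replicate 3 that change was 0.80 and passed (adjusted p = 0.00767), whereas without replicate 1 of that group it was 0.20 (adjusted p = 0.488).

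**Figure D2:**
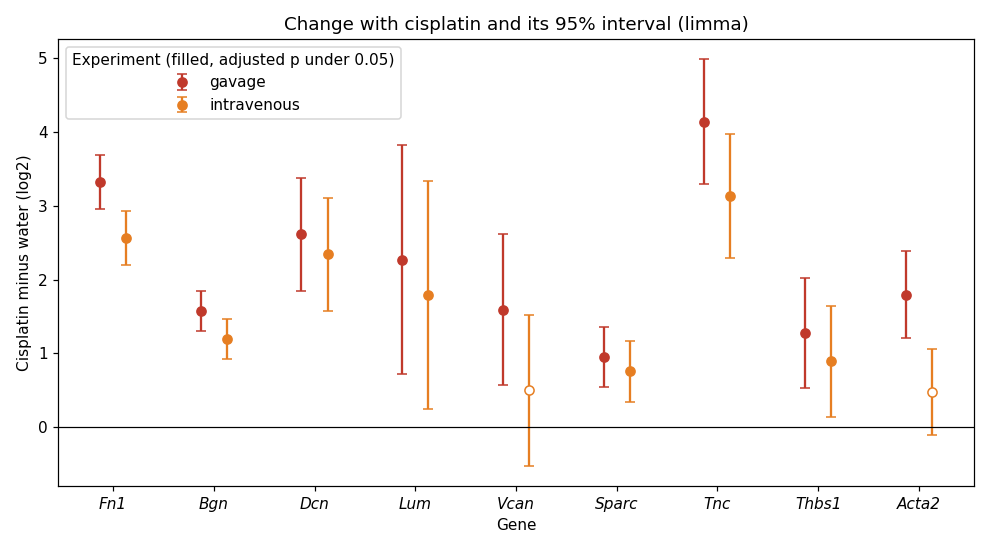
Cisplatin minus water for the 9 genes tested (vertical axis, log2), gavage and intravenous experiment side by side. Points are limma estimates, bars their 95% intervals, and filled points passed at an adjusted p under 0.05. Among the plotted values Tnc is highest at 4.14 and 3.13, and the open points are Vcan (0.50) and Acta2 (0.47) in the intravenous experiment. The Lum points are fitted values near background, for which the text gives bounds.

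Probe by probe, 14 of the 15 probes tested rose with gavage cisplatin, where 29.6% of all 43900 probes did, and 11 of 15 with intravenous cisplatin, where 27.6% did. The probe that missed the threshold in the gavage experiment was the dimmer Bgn probe. In the intravenous experiment the dimmer Bgn probe, 2 of the 3 Vcan probes and the Acta2 probe missed it. No probe of the family was lower with cisplatin.

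**Figure D3:**
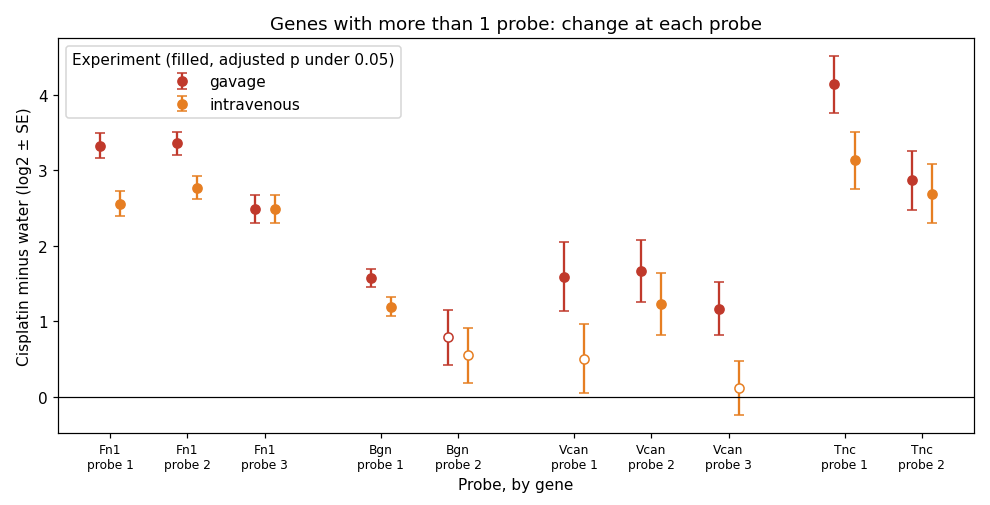
Change at each tested probe of the 4 genes with more than 1 probe (vertical axis, log2, cisplatin minus water ± SE), ordered within a gene as listed for the array, gavage beside intravenous. Filled points passed at an adjusted p under 0.05. The Fn1 probes rise by 2.49 to 3.36 and the points of the dimmer Bgn probe are open in both experiments.

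The question whether the 2 regimens differ was tested on the difference itself, the intravenous effect minus the gavage effect. No gene of the family passed (0 of 9 by limma, 3 of 9 at an unadjusted p under 0.05, namely Fn1, Bgn and Acta2). Among all features 1.21% passed, and 6259 of 32215 had an unadjusted p under 0.05. All 9 differences were below 0, from -0.19 for Sparc to -1.32 ± 0.37 for Acta2 (adjusted p = 0.105). Over all features the median difference was -0.029, and 337 of the 389 features that passed were lower. The 9 values share intravenous cisplatin replicate 3, low for most of these genes, and the dimmest Fn1 probe had 0.0015. With that array left out the difference was -0.550 for Fn1, -0.504 for Vcan, -0.0638 for Sparc and 0.162 for Lum. Lum was the only member whose difference rose above 0 in any fit that left out 1 array. Why the differences share a sign was not tested. The 95% intervals were -2.15 to -0.49 for Acta2 and -0.77 to 0.38 for Sparc, before any adjustment for the number of features. Without intravenous cisplatin replicate 1 the Acta2 difference was -1.59 and passed (adjusted p = 0.0293), while leaving out any other array left it short of the threshold. The water groups of the 2 experiments gave no passed difference for the family (0 of 9 by limma, 0 of 9 at an unadjusted p under 0.05) or for any feature (0%, with 4547 of 32215 at an unadjusted p under 0.05).

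The treated animals of a group were not alike. Intravenous cisplatin replicate 3 was below its group mean for all but 1 of the 8 detected genes (median deviation -0.41, log2), and replicate 1 above it for 7 of 8 (0.45). Gavage cisplatin replicate 3 was above its group mean for 8 of 9 genes (0.31) and replicate 2 above it for 2 of 9 (-0.29). Among water arrays the median deviation lay between -0.075 and 0.088.

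Cell type markers moved in the same arrays. Proximal tubule markers (8 of 8 well above background in every group) summed to 117214, 171340 and 73413 on the gavage cisplatin arrays, against 1177500 to 1328700 with gavage water. They summed to 127812, 373542 and 446480 on the intravenous cisplatin arrays, against 1059100 to 1236320 with intravenous water. The order of the 3 arrays within each cisplatin group by this sum was the reverse of their order by the median deviation of the matrix genes. Thick limb and distal tubule markers also had this reversed order. They summed to 9187, 14397 and 7758 with gavage and to 9009, 32191 and 50823 with intravenous cisplatin. Water arrays had 494901 to 538961 (gavage) and 508820 to 602965 (intravenous). Podocyte marker sums (16227 to 19220 with gavage and 17752 to 19016 with intravenous cisplatin) had it too, whereas collecting duct marker sums did not. Fibroblast markers (9 of 10 with a probe, all 9 well above background in every group) summed to 96364, 87513 and 113216 with gavage cisplatin, against 32328 to 38155 with gavage water. They summed to 93769, 89644 and 64934 with intravenous cisplatin, against 30608 to 37585 with intravenous water, and here the order within each cisplatin group was the same as for the matrix genes. That sum includes the collagen genes Col1a1, Col1a2 and Col3a1, which are matrix genes themselves. The part of each marker in the sum was not measured. Among single fibroblast markers the receptor gene Pdgfrb rose by 1.31 and 0.94 (gavage and intravenous) and Pdgfra by 0.90 and 0.62, while Cd34 changed by -0.081 and 0.048 and did not pass. These orders are over 3 arrays a group and carry no test.

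**Figure D4:**
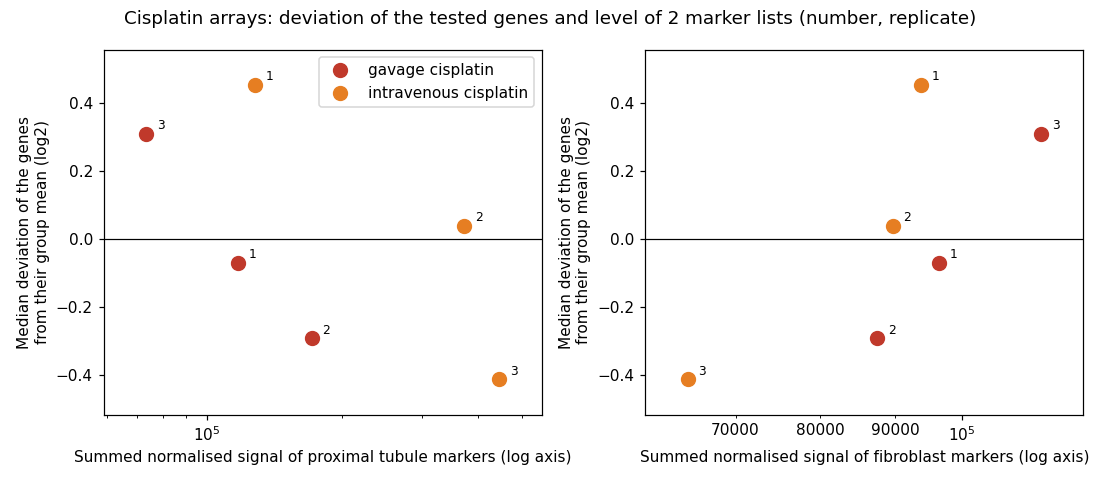
The 6 cisplatin arrays, each a point numbered by replicate: summed normalised signal of proximal tubule markers (left) and fibroblast markers (right) on a horizontal log axis, against the median deviation of the detected genes from their group mean (vertical axis, log2). Intravenous cisplatin replicate 3, at -0.41, has the highest proximal tubule sum (446480) and the lowest fibroblast sum (64934).

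Other cell types were measured in the same way. Their counts are read beside all features tested, of which 29.5% rose and 30.2% fell with gavage cisplatin. With intravenous cisplatin 26.1% of features rose and 32.7% fell, and some of the counts below are near these shares. Smooth muscle and pericyte markers summed to 34986 to 48645 with gavage cisplatin, against 26451 to 28928 with gavage water, and overlapped in the intravenous experiment (31646 to 36659, against 30928 to 35123). Of these 8 markers 7 were tested, 4 rose (Des, Rgs5, Notch3 and Actg2) and 1 fell (Cspg4) with gavage cisplatin, and 2 rose (Des and Rgs5) with intravenous cisplatin. Macrophage markers summed to 36008 to 70558 with gavage cisplatin, against 18975 to 21828 with gavage water, and to 37053 to 51751 with intravenous cisplatin, against 19830 to 31597 with intravenous water. Of the 10 macrophage markers tested, 9 rose with gavage and 5 with intravenous cisplatin. Cd163, which rose in both, and Itgam, which rose with gavage cisplatin, passed the detection filter through cisplatin groups alone. Adgre1 (0.084 and -0.19) passed in neither, and Itgam, C1qa, C1qb and C1qc did not pass with intravenous cisplatin. The 1 mesothelial marker on the array, Msln, was at least 8.10-fold higher with gavage cisplatin, where no water array was well above background, and rose by 2.19 with intravenous cisplatin, where 1 of 3 water arrays was, with a signal of 76.9 to 318 on gavage cisplatin arrays, against 7.28 to 10.1 with gavage water, and of 44.1 to 106 on intravenous cisplatin arrays, against 7.71 to 30.7 with intravenous water. Urothelial markers summed to 811 to 1028 with gavage cisplatin, against 187 to 370 with gavage water, and to 576 to 1017 with intravenous cisplatin, against 279 to 422 with intravenous water. Of the 4 urothelial markers tested, 3 rose with gavage cisplatin and 1 with intravenous cisplatin, Krt20, at least 16.3-fold higher there, while Upk3a (-0.34), Upk1a (-0.31) and Upk1b (0.45) did not pass. Endothelial markers summed lower with cisplatin, 16522 to 17930 against 29147 to 31885 (gavage) and 16708 to 18168 against 24481 to 30933 (intravenous). Of the 7 endothelial markers tested, 4 fell with gavage and 3 with intravenous cisplatin. Kdr fell (-1.10 and -0.92), whereas Pecam1 (-0.075 and -0.050) and Cdh5 (-0.21 and -0.18) passed in neither experiment. The part of these cell types in the matrix result was not tested, and in RNA of whole cortex fewer cells of a type and less RNA per cell cannot be told apart.

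Slides divided the animals as well. Gavage water arrays shared slide 1 with gavage cisplatin replicate 1, gavage cisplatin replicates 2 and 3 shared slide 2 with the intravenous water arrays, and slide 3 held the 3 intravenous cisplatin arrays, so that slide and treatment cannot be told apart in the intravenous comparison. With slide as a block the gavage comparison rests on slide 1, with a single cisplatin array that is assumed to vary like the other groups. In that fit Fn1 (3.26), Bgn (1.42), Dcn (2.75), Sparc (1.01), Tnc (4.17) and Acta2 (1.66) passed. Lum (2.48, limma adjusted p = 0.0785), Vcan (1.49, adjusted p = 0.103) and Thbs1 (0.95, adjusted p = 0.133) did not. Scaling matters to the level of every gene: the cisplatin arrays were brighter, and with arrays scaled on 7 spike-in probes the median over all features moved to 0.68 (gavage) and 0.44 (intravenous). The share of passed features that were higher was then 87.0% and 83.3%, against 49.4% and 44.4% in the reported fit and 38.9% and 37.4% with normexp background correction. The 9 genes kept a change above 0 in both comparisons under each of these scalings. With spike-in scaling this says little, because the median over all features was itself above 0. Under normexp Lum in the gavage (0.21) and Thbs1 in the intravenous experiment (0.21) did not pass.

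The lists below are read beside the shares of all features tested that rose, given above, and that fell. In the reported fit 30.2% fell with gavage and 32.7% with intravenous cisplatin. With spike-in scaling 20074 of the 32215 features rose and 3004 fell with gavage cisplatin, and 16020 rose and 3215 fell with intravenous cisplatin. Under normexp 7959 rose and 12501 fell with gavage, and 7370 rose and 12340 fell with intravenous cisplatin. List counts under these 2 settings are read beside those numbers.

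Among the 7 other small leucine-rich proteoglycans tested of 12 listed, 1 rose and 2 fell with gavage cisplatin (median -0.28) and 0 rose and 4 fell with intravenous cisplatin (median -0.57). Ogn, which encodes osteoglycin, rose by 1.42 ± 0.45 with gavage cisplatin (limma adjusted p = 0.0187) and had 0.36 in the intravenous experiment, not passed. Aspn, which encodes asporin, changed by -0.78 and -0.58 and Prelp, which encodes prolargin, by -0.64 and -0.59, both passed in each experiment, but with spike-in scaling neither passed and Prelp turned to 0.038 with gavage cisplatin. Nyx, which encodes nyctalopin, had -0.46 with gavage cisplatin, not passed, and -0.57 with intravenous cisplatin, passed, and Chad (chondroadherin) had -0.28, not passed, and -0.69, passed. The intravenous Nyx call did not last: it was lost with spike-in scaling (-0.050), averaged probes, no filter on dim probes, the replicate block, the 6 arrays of that experiment alone and in 8 of 12 fits that left out 1 array, among them -0.40 without intravenous water replicate 1 (limma adjusted p = 0.170). With gavage cisplatin Nyx passed under normexp (-0.48, adjusted p = 0.0155), with averaged probes (-0.41, adjusted p = 0.0452) and without gavage water replicate 1 (-0.64, adjusted p = 0.0371), and had 0.22 with spike-in scaling. The intravenous Aspn call was also lost in the fit of the 6 arrays alone (adjusted p = 0.0746), without intravenous water replicate 1 (-0.46, adjusted p = 0.0791) and without intravenous cisplatin replicate 3 (-0.37, adjusted p = 0.0619). The Ogn call was lost without gavage cisplatin replicate 1 (1.07, adjusted p = 0.0731) and without either of gavage water replicates 2 and 3, and the Prelp calls when its probes were averaged (-0.22 and -0.15). With spike-in scaling 3 of this list rose and 0 fell in the gavage and 0 moved either way in the intravenous experiment.

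Of 19 large and cell-surface proteoglycans and link proteins tested, 7 rose and 3 fell with gavage cisplatin (median -0.073), and 6 rose and 6 fell with intravenous cisplatin (median 0.011). Cd44, which encodes the hyaluronan receptor of the cell surface, rose by 4.12 and 3.98 (gavage and intravenous), and Hapln3, a link protein gene that ties proteoglycans to hyaluronan, by 4.26 and 4.17. Of the syndecans, Sdc1 rose by 1.91 and 1.54 and Sdc2 fell (-1.40 and -1.66). The other 2 that fell with gavage cisplatin were Bcan (brevican, -0.59) and Cspg4, a pericyte proteoglycan gene (-0.77). Ncan, which fell with intravenous cisplatin, passed the detection filter through water groups alone. With spike-in scaling 12 of this list rose and 1 fell, and 10 rose and 2 fell.

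Of 18 other matricellular genes tested, 11 rose and 3 fell with gavage cisplatin (median 0.89), and 9 rose and 5 fell with intravenous cisplatin (median 0.70). Comp, Tnn and Ccn5, which rose in both experiments, passed the detection filter through cisplatin groups alone. Spock1 and Ccn6, which fell in both, passed it through water groups alone. Spp1, which encodes osteopontin, rose by 4.81 and 4.89. Smoc2, which encodes a SPARC-related calcium-binding protein, rose by 4.04 and 2.53, with a difference of -1.51 that did not pass (limma adjusted p = 0.0662), and Ccn1, an immediate early gene of the CCN family, rose by 2.50 and 2.00. Spock1, which encodes the proteoglycan testican-1, was not well above background on any cisplatin array and was at least 4.80-fold lower with gavage and at least 5.87-fold lower with intravenous cisplatin (adjusted p = 2.33e-06 and 4.27e-06). Thbs4, which encodes thrombospondin-4, fell (-3.77 and -2.89), and Ccn6, detected on 1 of 3 cisplatin arrays in each experiment, had fitted changes of -4.94 and -3.86. Tnr (tenascin-R, -1.34) and Tgfbi (-0.99) also fell with intravenous cisplatin. With spike-in scaling 12 of this list rose and 3 fell, and 11 rose and 4 fell.

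Of 14 elastic fibre and glycoprotein genes tested, 8 rose and 1, Fbn2, fell (-0.64) with gavage cisplatin (median 0.69), and 7 rose and 0 fell with intravenous cisplatin (median 0.44). With spike-in scaling 11 rose and 0 fell with gavage cisplatin and 10 rose and 0 fell with intravenous cisplatin, while under normexp 2 fell with gavage cisplatin. Fbln1, which encodes fibulin-1, a fibronectin-binding glycoprotein, rose by 3.05 and 2.69, Fbn1, the gene of the microfibril protein fibrillin-1, by 2.10 and 1.55, Eln (elastin) by 1.55 and 1.43 and Efemp2 (fibulin-4) by 1.42 and 1.47. The intravenous change of Eln was 0.33 (limma adjusted p = 0.0513) when its probes were averaged.

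Of 17 enzymes of glycosaminoglycan synthesis tested, 9 rose and 0 fell with gavage cisplatin (median 0.62), and 8 rose and 1 fell with intravenous cisplatin (median 0.32). Dse, which encodes the epimerase that makes dermatan sulphate, the chain type carried by decorin and biglycan, rose by 1.91 and 1.36. The chondroitin polymerase gene Chsy1 rose by 1.35 and 1.29, the sulphotransferase gene Chst12 by 1.27 and 1.39 and the polymerising factor gene Chpf2 by 0.82 and 0.73. The gene that fell with intravenous cisplatin was the hyaluronan synthase gene Has1 (-0.49). Chst11, which rose with gavage cisplatin, passed the detection filter through cisplatin groups alone. With spike-in scaling 15 rose and 0 fell with gavage cisplatin (median 1.30) and 12 rose and 0 fell with intravenous cisplatin, whereas under normexp 8 rose and 1 fell (median 0.32), and 6 rose and 3 fell.

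Of 12 receptor genes tested, 7 rose and 1 fell with gavage cisplatin (median 0.83), and 7 rose and 0 fell with intravenous cisplatin (median 0.72). Itga5 and Itgb1, which encode the subunits of the main fibronectin integrin, rose by 1.16 and 0.91 with gavage cisplatin and by 1.33 and 0.68 with intravenous cisplatin. Lrp1, an endocytic receptor for thrombospondin-1, rose by 1.16 and 1.36. Cd47, the other thrombospondin receptor named here, rose by 0.74 with gavage cisplatin and had 0.30 in the intravenous experiment, not passed. That intravenous change was -0.076 when its probes were averaged, but passed with quantile scaling (0.46, limma adjusted p = 0.0129), with spike-in scaling (0.82, adjusted p = 4.46e-04), in the fit of that experiment's 6 arrays (adjusted p = 0.0447), and when either replicate 2 (adjusted p = 0.0375) or replicate 3 (adjusted p = 0.0462) of the gavage cisplatin group was left out. Itgb5, an integrin subunit gene of the vitronectin receptor, was the 1 that fell with gavage cisplatin (-0.52), a call lost with spike-in scaling, under which 11 of the 12 rose and 0 fell (10 and 0 with intravenous cisplatin).

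Beside Acta2, 15 other smooth muscle contractile genes were tested, of which 11 rose and 1 fell with gavage cisplatin (median 1.39), and 9 rose and 1 fell with intravenous cisplatin (median 0.74). Tagln, which encodes the actin-binding protein transgelin, rose by 3.34 and 2.22, Flna (filamin A) by 3.00 and 2.33, Tpm1 (tropomyosin 1) by 1.61 and 1.57 and Des (desmin) by 1.50 and 1.14. Filamin A and tropomyosin 1 are also made by cells other than smooth muscle. In the reported fit Myh11 (-0.078 and -0.19), Mylk (0.061 and -0.017) and Cnn1 (0.62 and 0.76) passed in neither experiment. Cnn1 was not well above background on any intravenous water array. Smtn (smoothelin), a gene of contractile smooth muscle, fell (-0.49 and -0.35), but with spike-in scaling 14 of the list rose and 0 fell with gavage and 12 rose and 0 fell with intravenous cisplatin, and with quantile scaling 0 fell with intravenous cisplatin.

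**Figure D5:**
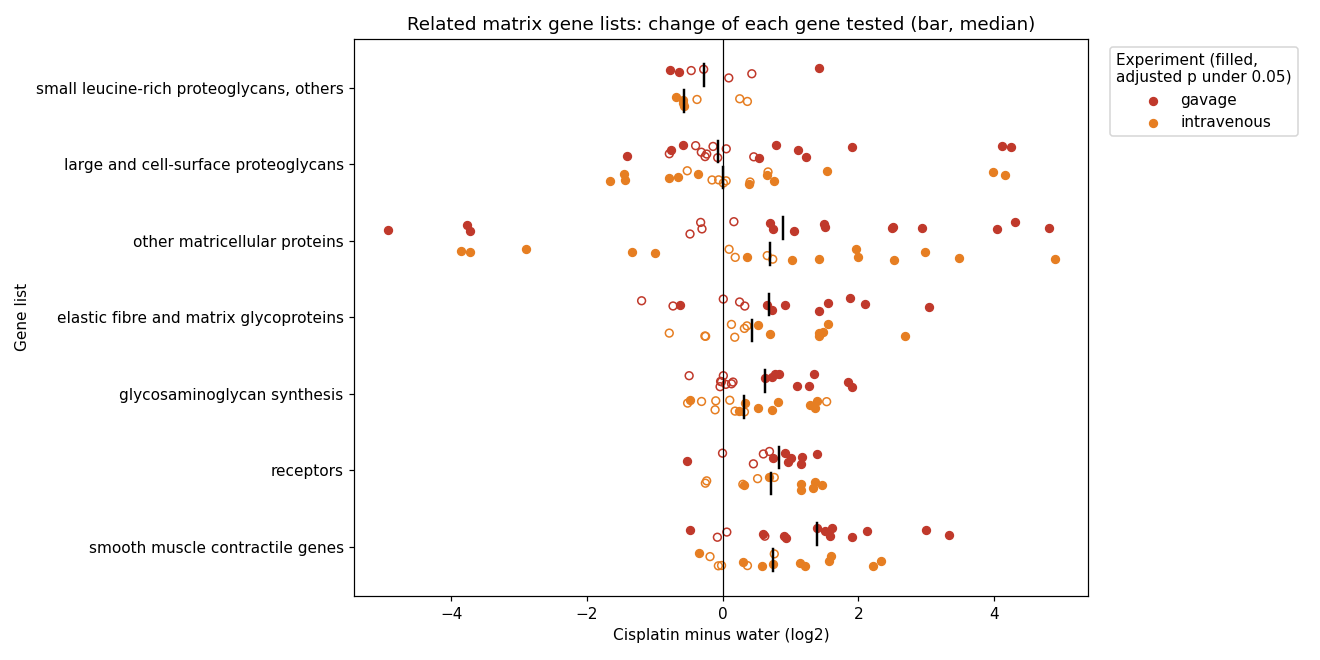
Change of each tested gene of 7 related lists (horizontal axis, log2, cisplatin minus water), gavage above intravenous within each list (vertical axis). Points are genes, filled where the adjusted p was under 0.05, and bars are list medians. Smooth muscle contractile genes have the highest medians (1.39 and 0.74) and the other small leucine-rich proteoglycans the lowest (-0.28 and -0.57).

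For each tested gene of the family the named gene with the nearest profile was sought, by the root mean square difference of log2 values over the 12 arrays after centring each gene on the 6 water arrays. Acta2 was nearest to Myl9, the myosin light chain gene of smooth muscle (0.200), and Vcan to Acta2 (0.376). Sparc lay nearest to the homeobox gene Prrx1 (0.105), Dcn to Olfml2b (0.245), Bgn to Sbno2 (0.142) and Fn1 to Ppm1n (0.174). Tnc was nearest to Ramp1 (0.298), Thbs1 to Sprr1a (0.232) and Lum, the dimmest, to Mmrn1 (0.491). These distances are a description over arrays that share the treatment contrast.

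Promoter windows from RefSeq (GRCr8, 250 bases before to 50 bases after the start) were held for 7 of the 10 genes. The 250 bases before the start are shown for Tnc, which rose in both experiments, for Acta2, which passed in the gavage experiment alone, and for Thbs1. They lie at chr5:82476132-82476381 (minus strand), chr1:241172504-241172753 (minus strand) and chr3:125510000-125510249 (plus strand), and capitals mark the motif matches described next.
Tnc: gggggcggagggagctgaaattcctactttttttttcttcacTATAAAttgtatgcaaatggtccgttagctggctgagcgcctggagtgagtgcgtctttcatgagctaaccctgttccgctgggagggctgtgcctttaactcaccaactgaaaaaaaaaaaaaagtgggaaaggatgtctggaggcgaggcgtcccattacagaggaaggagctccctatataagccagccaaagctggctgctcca
Acta2: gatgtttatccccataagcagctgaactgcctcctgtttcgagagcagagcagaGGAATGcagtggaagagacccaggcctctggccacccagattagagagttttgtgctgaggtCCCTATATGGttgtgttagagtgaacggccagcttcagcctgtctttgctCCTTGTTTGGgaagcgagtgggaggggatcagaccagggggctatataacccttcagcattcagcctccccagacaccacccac
Thbs1: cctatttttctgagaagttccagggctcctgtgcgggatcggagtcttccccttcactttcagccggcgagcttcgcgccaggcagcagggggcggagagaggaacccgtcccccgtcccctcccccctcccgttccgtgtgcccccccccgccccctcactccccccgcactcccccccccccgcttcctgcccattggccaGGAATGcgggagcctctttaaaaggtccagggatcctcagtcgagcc

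Each whole window was searched on both strands for 4 motifs. The first was TATAAA, the common letters of a TATA box. The AP-1 site was written as TGANTCA. For the TEAD family the letters were CATTCC, which read GGAATG on the opposite strand. The last was the CArG box bound by serum response factor, also in a form with a single core base other than A or T. The Tnc window holds 1 TATAAA, which 14.2% of all 33469 windows hold, and so does that of Postn. In Tnc it lies toward the end of the shown bases that is farthest from the start. The letters tatataa, close to the start in Tnc and Acta2, differ from TATAAA and were not searched for. Acta2 holds GGAATG and Thbs1 holds GGAATG as well, and Sparc holds CATTCC, a site present in 14.2% of windows. In the Acta2 window there are 2 CArG boxes with 1 such mismatch (CCCTATATGG and CCTTGTTTGG), a form present in 8.1% of windows, and no perfect one, which 1.64% hold. The AP-1 site (7.33% of windows) was in none of the 7, and the Lum and Vcan windows held none of these letters. The capitals of different motifs do not overlap in the windows shown. A match is a run of letters in a window and was not tied to any binding measurement.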

How the data were processed

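Cortical RNA of 12 rats was hybridised to 1-colour Agilent arrays. The submitters' processing notes name Agilent Feature Extraction 10.7 as the software that read the spots, and the file headers version 10.7.1.1. As main deposited intensity served the processed signal, background-subtracted within each array and not normalised between arrays per the file headers. The raw median intensity of spot and background, also deposited, served the normexp alternative. The authors' deposited value table holds a linear ratio, which on matching to the scanner values proved to be the processed signal over the array's 75th percentile (61537 probes, column medians 0.109 to 0.121), and was an alternative. No label explains how the authors chose it.

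Here log2 of the processed signal minus each array's 75th percentile was taken, without 1439 control spots and 82 uneven spots (left missing). No spot was saturated. Accessions were named through RefSeq (GRCr8, names only, since the design refers to an older assembly), 28206 probes having 1 symbol, 0 several and 33331 none. The brightest probe stood for a gene (9036 genes had several). Testing asked that some group have all 3 of its arrays well above background, true of 32215 of 45433 features and of 12610 named genes. The model, limma 3.58.1 in R 4.3.3, had a mean for each of the 4 groups over 12 arrays and 8 residual degrees of freedom, and was two-sided, with Benjamini-Hochberg adjustment. The fit was tested on simulated data. A second fit took all 43900 detected probes as features.

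The named genes were the 10 members, up to 4 genes of each related list with the smallest p in the gavage comparison, the nearest profile of each member and the markers beside a result. Chad, Bcan, Cspg4, Thbs4, Ccn6, Tnr, Tgfbi, Fbn2, Has1, Itgb5, Smtn, Myh11, Mylk and Cnn1 were named after their values were seen. So were Comp, Tnn, Ccn5, Ncan, Chst11 and the endothelial and macrophage markers named singly. The members, lists and rules were chosen with earlier results of these data known. Alternatives were quantile and spike-in scaling, normexp correction (offset 50), the deposited ratios, uneven spots kept, no filter on dim probes, the mean of all probes, slide and replicate blocks, fits of 6 arrays and leaving out each array.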

Additional observations from a re-analysis of the deposited data

How the results depend on the processing

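Settings other than leaving out an array kept Fn1, Bgn, Dcn, Sparc and Tnc past the threshold in both comparisons (11 settings in the gavage and 10 in the intravenous experiment). Lum passed in 9 of 11 and 6 of 10, Vcan in 10 of 11 and 0 of 10, Thbs1 in 10 of 11 and 5 of 10, and Acta2 in 11 of 11 and 1 of 10, the last with spike-in scaling (0.99, limma adjusted p = 0.00799, beside a median of 0.44 over all features). Leaving out each array gave 8 to 9 members called with gavage cisplatin and 5 to 9 with intravenous cisplatin, where it was 9 without intravenous cisplatin replicate 3, and 17235 to 19696 and 16693 to 19142 features. The features whose effects differed between the experiments numbered 389 in the reported fit, 229 with quantile scaling, 588 with slide as a random block, 0 with spike-in scaling, 0 with no filter on dim probes and 0 with the replicate block, and 0 to 2413 when an array was left out (2413 without gavage cisplatin replicate 1, 2153 without intravenous cisplatin replicate 1), with 0 to 1 members lower, and the cause was not tested. Between the water groups the count was 0 in the reported fit, 8 with normexp, 6 with slide as a fixed block and 0 to 1119 when an array was left out (1119 without gavage cisplatin replicate 1).

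Same-numbered animals did not visibly deviate together (correlations -0.111 to 0.0634, against -0.0863 to 0.118 for animals of different number). With 3 animals a group this cannot settle whether the numbers pair them. With the replicate block, Thbs1 in the intravenous experiment had an adjusted p of 0.0642 and no other member call changed.

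Some values near 0 changed sign. With spike-in scaling the gavage change of Prelp was 0.0376 and of Nyx 0.216, and the water difference (intravenous minus gavage) of Dcn 0.0199 and of Sparc 0.135. Averaging probes gave -0.0760 for Cd47 (intravenous) and -0.259 for Tnc (water difference). The effect difference of Lum was 0.0941 with normexp and -1.29 (without intravenous cisplatin replicate 1) to 0.162 (without replicate 3 of that group) when an array was left out. The water difference of Lum was -0.0532 with normexp. When an array was left out, that difference ranged from -0.156 to 0.614 for Lum, from -0.123 to 0.322 for Vcan, from -0.394 to 0.0643 for Dcn, from -0.169 to 0.0358 for Sparc and from -0.0225 to 0.222 for Tnc, each turning without a water array. Slide as a fixed block turned it to -0.0810 for Bgn, 0.0171 for Dcn, -0.0693 for Vcan and 0.0173 for Sparc. Slide as a fixed block could not be fitted for the intravenous comparison or the effect difference. Lum and Postn lie near background, so their sizes are bounds.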
